A study of Mus musculus with 25 samples.

Results

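The 10 integrin genes described here are Itgam, Itgal, Itga4, Itga5, Itga6, Itgav, Itgb1, Itgb2, Itgb5 and Itgb7, which encode adhesion receptor chains of resident and blood-derived myeloid cells. They were chosen by name, 10 of the 22439 gene symbols in the deposited count tables, and all 10 passed the filter on low counts in every comparison. The study counted transcripts, as unique molecular identifiers (UMIs), by droplet 3′ single-cell RNA-seq in 30958 myeloid cells sorted from mouse spinal cord, in 25 libraries. Of these, 2 followed laminectomy alone, which opens the vertebra and leaves the cord whole (Ctrl), and 5, 4, 7, 5 and 2 followed spinal cord injury by 1, 2, 3, 10 and 21 days (D1, D2, D3, D10, D21). Day 2 is given by the sample labels and is absent from the series' design text. All mice were Cx3cr1CreERT2, a line in which the Cx3cr1 gene drives a Cre recombinase that must be induced, and the agent or schedule that induced Cre is not given in the sources used here, nor is the age of the mice. In 12 libraries, from mice without a red reporter, all YFP+ cells were taken; these are called mixed. In Cx3cr1CreERT2:R26tdTomato mice, whose red fluorescent protein (RFP) Cre switches on, 5 libraries took RFP+/YFP+ cells (resident) and 7 took RFP-/YFP+ cells (infiltrating). The remaining library, at D3, is titled infiltrating but carries the RFP+/YFP+ sort label, and it entered no comparison except as an alternative. Each library pooled tissue of 1 to 3 mice, so the library is the replicate and p-values measure the spread between libraries. Mouse strain separates the mixed libraries from the resident and infiltrating ones, which share a strain.

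An integrin is a heterodimer of an α and a β chain, and the pair sets the ligand. Itgb2 is the leukocyte β chain: with Itgal it forms LFA-1, which binds ICAM proteins on endothelium, and with Itgam it forms Mac-1, the complement receptor known as CD11b/CD18. Itga4 pairs with Itgb1 to form VLA-4, which binds VCAM-1 and fibronectin, or with Itgb7 to form a receptor for the mucosal addressin Madcam1; antibodies to the α4 chain are used to keep blood leukocytes out of the central nervous system. Itga5 with Itgb1 is the classical fibronectin receptor, Itgav with Itgb5 binds vitronectin, and Itga6 with Itgb1 binds laminin. The counts measure each chain's transcript, not the assembled pair on the surface.

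The members lie on 6 chromosomes of GRCm38, and positions are those of the GENCODE M21 gene from start to end with its strand. The leukocyte chains are Itgb2 at 10:77530252-77565708 (+), Itgal at 7:127296260-127335138 (+) and Itgam at 7:128062640-128118491 (+). The α4 receptor chains are Itga4 at 2:79255426-79333123 (+) and Itgb7 at 15:102215995-102231944 (-). The remaining chains are Itga5 at 15:103344286-103366763 (-), Itgav at 2:83724397-83806916 (+), Itgb5 at 16:33829665-33949338 (+), Itga6 at 2:71745616-71858416 (+) and Itgb1 at 8:128685654-128733200 (+). RefSeq promoter sequence (GRCm38.p6) was matched for 7 members, and Itgal, Itgb2 and Itga6 had no entry. Shown are the 250 bases before the RefSeq start of 4 members. For Itgb7 that start differs slightly from the GENCODE one, so that its window overlaps the gene given above. The 4 are Itga4 and Itgb7, the chains of 1 receptor, both higher in macrophages than in microglia, Itgb5, which was higher in microglia, and Itgam, which was lower in macrophages at D10.
Itga4 (chr2:79255176-79255425, + strand): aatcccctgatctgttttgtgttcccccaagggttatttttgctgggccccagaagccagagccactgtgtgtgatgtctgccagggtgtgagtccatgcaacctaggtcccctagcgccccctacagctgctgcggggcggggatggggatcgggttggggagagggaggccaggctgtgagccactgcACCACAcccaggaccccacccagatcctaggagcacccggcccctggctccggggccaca
Itgb7 (chr15:102231936-102232185, - strand): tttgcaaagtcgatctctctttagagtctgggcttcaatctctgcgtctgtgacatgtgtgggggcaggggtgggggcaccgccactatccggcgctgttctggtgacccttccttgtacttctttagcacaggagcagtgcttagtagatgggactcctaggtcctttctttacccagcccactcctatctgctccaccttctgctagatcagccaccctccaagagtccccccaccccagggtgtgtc
Itgb5 (chr16:33829415-33829664, + strand): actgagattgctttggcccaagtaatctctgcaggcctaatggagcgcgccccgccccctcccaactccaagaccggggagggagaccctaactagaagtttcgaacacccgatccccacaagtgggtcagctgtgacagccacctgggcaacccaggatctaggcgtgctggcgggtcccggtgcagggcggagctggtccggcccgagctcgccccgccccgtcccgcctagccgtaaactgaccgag
Itgam (chr7:128062390-128062639, + strand): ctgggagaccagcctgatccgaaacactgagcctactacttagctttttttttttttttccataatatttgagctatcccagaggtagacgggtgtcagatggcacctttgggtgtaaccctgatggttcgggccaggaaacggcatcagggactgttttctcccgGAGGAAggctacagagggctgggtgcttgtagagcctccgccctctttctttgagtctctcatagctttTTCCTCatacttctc

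Capitals mark matches on either strand to GAGGAA, a core bound by the myeloid factor PU.1, and TGTGGT, a core bound by RUNX factors; on the other strand they read TTCCTC and ACCACA, and the motifs do not overlap. GAGGAA was present in 23.3% and TGTGGT in 14.0% of the 32851 promoters of that length in the table. Itgam had GAGGAA starting at -84 and -15, with -1 as the last base before the gene, and Itga4 had TGTGGT at -60. Among the matched members not shown, GAGGAA was in Itgav at -218 and -7, in Itgb1 at -9 and in Itga5 at -127. Neither string was found in these windows of Itgb7 and Itgb5. A match is a description of letters, not of binding.

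Libraries held 155 to 3800 cells and 486649 to 33204422 UMIs, with median depths per cell of 1577 to 11233 UMIs, and no cell barcode was shared between libraries. The authors' 4 cell type codes carry no names. By marker genes they were microglia (13289 cells, 9 of 9 microglia markers), macrophages including monocytes (12841 cells, 5 of 8 monocyte and 7 of 9 macrophage markers), dendritic-like cells (2712, 5 of 8 markers) and neutrophil-like cells (2116, 7 of 7 markers, with 3 of 4 erythroid markers also higher there). Microglia were 67.9% to 100% of resident libraries and 0.253% to 26.5% of infiltrating ones. The authors' cell types came from the same cells' expression, so tests between types describe how regular a difference was over libraries, while the reporter sort is independent of the counts. Counts were summed per library and cell type, and CPM gives a gene's UMIs after each sum is scaled to the same UMI total; levels are comparable between samples, not between genes.

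Itgb7 and Itga4, the chains of the Madcam1 receptor, were near the floor in microglia and high in the other mononuclear types. Itgb7 ranged over 0 to 7.40 CPM (median 0.257) in the 19 microglial sums, 28 counts in 51253155 UMIs, against 0 to 229.5 CPM (median 93.7) in 19 macrophage sums, 135 to 336 CPM (median 207) in 9 dendritic-like sums and 2.92 to 31.2 CPM (median 14.0) in 4 neutrophil-like sums. Itga4 followed the same order for the first 3 types, with 0 to 35.7 CPM (median 7.06), 7.30 to 169 CPM (median 53.4) and 64.3 to 214 CPM (median 101), and had 6.32 to 54.9 CPM (median 9.57) in neutrophil-like cells. The lowest dendritic-like library exceeded the highest microglial one for both genes, while dendritic-like and macrophage ranges overlapped. After each cell was thinned to 1000 UMIs, Itgb7 was seen in 0.0830% of microglia, 7.82% of macrophages, 22.1% of dendritic-like and 0.910% of neutrophil-like cells; without thinning the shares were 0.218%, 36.1%, 74.3% and 2.21% at median depths of 3062, 8843.5, 11481 and 2100 UMIs. Free RNA was not subtracted, and the microglial share does not measure it for the other types. Over all cells, Itgb7 had a median of 4.38 CPM in mixed, 19.9 in resident and 179 in infiltrating libraries, and microglia were few in the last.

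The leukocyte chains split by type in another way. Itgal, the LFA-1 α chain, had 0 to 15.9 CPM (median 2.80) in microglia, 0 to 113 CPM (median 29.2) in macrophages, 2.80 to 43.8 CPM (median 13.03) in dendritic-like and 20.8 to 127 CPM (median 73.7) in neutrophil-like cells. Itgam, the CD11b chain that is used to sort all myeloid cells, was detected in every type, with medians of 267, 212, 127 and 459 CPM in that order and overlapping ranges. Their common partner Itgb2 varied least between these 4 medians among the leukocyte chains, at 307, 382, 263 and 310.1 CPM. Itgb5 had the opposite order to Itgb7 across the first 3 types, with 217 to 1338 CPM (median 607), 87.6 to 621 CPM (median 260.4) and 71.6 to 173 CPM (median 112), and only 20.8 to 36.6 CPM (median 29.3) in neutrophil-like cells. Itga6, the laminin receptor chain, had medians of 133, 78.6, 16.3 and 13.7 CPM. Itga5 had medians of 14.2, 45.4, 33.5 and 48.4 CPM, Itgav of 24.6, 49.1, 23.9 and 30.5, and Itgb1 of 270.2, 219.7, 216 and 138; all 3 had overlapping ranges between microglia and macrophages.

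**Figure D1:**
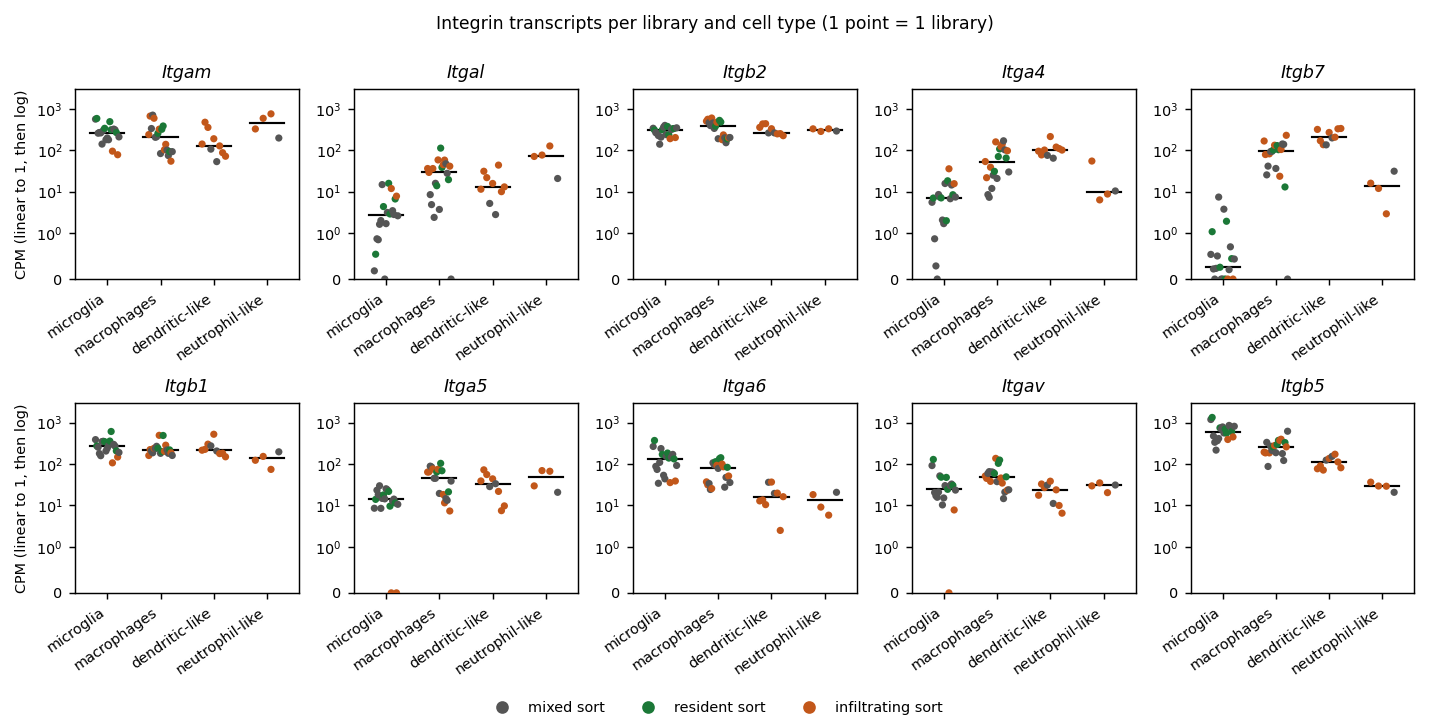
Level of each integrin gene (CPM, axis linear to 1 and logarithmic above) in every library sum of at least 20 cells, by cell type; points are libraries coloured by sort and the black line is the median. Itgb7 runs from 0 to 7.40 CPM in microglia and from 135 to 336 CPM in dendritic-like cells, and Itgb5 falls in the opposite order.

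Which chains set macrophages apart from microglia was asked within libraries that held both; 3 of the 8 early and 1 of the 6 late ones are resident libraries, whose cells were sorted as RFP+. In 8 libraries of D1 to D3, 6 members were higher in macrophages (Itgb7, Itga4, Itgal, Itga5, Itgav, Itgb2) and 3 lower (Itgb5, Itga6, Itgb1), 9 of 10 against 37.5% of all 9596 genes tested (edgeR's quasi-likelihood test, library as a block, Benjamini-Hochberg adjusted p under 0.05). From here on CPM values beside a test are TMM-scaled, that is, divided by library sizes corrected for composition. Itgb7 was 22.1 to 116 CPM (median 88.6) in macrophages and 0 to 6.09 CPM (median 0.366) in microglia, higher in 8 of 8 libraries (log2 fold change 6.15 ± 0.48 (SE), adjusted p = 4.5e-09). Itga4 was 6.64 to 93.5 CPM (median 25.3) against 0 to 19.8 CPM (median 6.25) (1.98 ± 0.38, adjusted p = 3.3e-04). Each of the 6 genes was higher in all 8 libraries, and the ranges of Itgb7 did not overlap.

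Itgal, the other chain with a blood-leukocyte role in arrest on endothelium, was 2.31 to 101 CPM (median 9.70) in macrophages and 0.931 to 16.4 CPM (median 3.098) in microglia (1.88 ± 0.41, adjusted p = 9.9e-04). The fibronectin receptor chain Itga5 was 24.2 to 93.1 CPM (median 57.9) against 8.08 to 33.2 CPM (median 19.4) (1.62 ± 0.27, adjusted p = 5.9e-05), and Itgav was 46.6 to 109 CPM (median 61.1) against 17.5 to 49.1 CPM (median 28.0) (1.13 ± 0.26, adjusted p = 0.00149). Their ranges overlapped although each library gave the same order. Itgb2 differed less, at 236 to 471 CPM (median 382) against 133 to 387 CPM (median 254) (0.61 ± 0.18, adjusted p = 0.0123). On the microglial side, Itgb5 was 79.7 to 325 CPM (median 247) in macrophages and 241 to 718 CPM (median 529) in microglia (-1.08 ± 0.25, adjusted p = 0.00149) and was lower in macrophages in all 8 libraries. Itga6 (-0.66 ± 0.25, adjusted p = 0.0402) and Itgb1 (-0.48 ± 0.18, adjusted p = 0.0372) were also lower in all 8. Itgam did not pass (-0.07 ± 0.23, adjusted p = 0.856; higher in 3 of 8). The calls of Itgb2, Itga6 and Itgb1 were not stable: Itgb2 lost its call without D2_mixed 1 (adjusted p = 0.0512), Itgb1 without D2_mixed 1, D2_resident 1, D3_resident 1 or D3_resident 2 (0.0688 to 0.0829), and Itga6 without any of 7 libraries (D1_mixed 1, D1_mixed 3, D2_mixed 2, D2_resident 1, D3_mixed 3, D3_resident 1, D3_resident 2; 0.0507 to 0.0880). With sums of at least 50 cells all 3 were lost (0.0901, 0.0647 and 0.135 for Itgb2, Itgb1 and Itga6), and with cluster 2 left out Itgb2 (0.0711) and Itga6 (0.0790).

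Of 6 libraries of D10 and D21, 2 were infiltrating, with 36 (D10_infiltrating 2) and 41 (D21_infiltrating 1) microglia-coded cells. The summed macrophage markers of these cells were 6396 and 4574 CPM, against 5155 and 3001 in the macrophages of the same libraries. In the 6 libraries, 6 members passed, and all 6 calls held without either of these 2 libraries in turn: Itgb7, Itga4 and Itgal were higher in macrophages and Itgam, Itga6 and Itgb5 lower, against 13.6% of all genes. Itgb7 was 0 to 214 CPM (median 121) in macrophages and 0 to 0.723 CPM (median 0.332) in microglia (log2 fold change 7.15 ± 0.69 (SE), adjusted p = 3.8e-07); it was higher in 5 of 6 libraries, and in D21_mixed 1 it was at 0 in the 78 macrophages. Itga4 was 41.3 to 159 CPM (median 95.2) against 6.86 to 35.1 CPM (median 12.2), with no overlap (3.05 ± 0.40, adjusted p = 1.7e-05). Itgal was 0 to 60.2 CPM (median 32.8) against 2.89 to 11.7 CPM (median 5.19) (2.50 ± 0.46, adjusted p = 5.4e-04; higher in 5 of 6). Of the 78 macrophages of D21_mixed 1, 71 lay in deposited cluster 3, a cluster that spans both cell types; macrophage-coded cells of cluster 3 (348) had 5.04 CPM of Itgb7 and 27.2 of Itga4, against 0.214 and 8.68 in its 3312 microglia-coded cells.

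Itgam, not called early, was 50.9 to 145 CPM (median 98.9) in late macrophages and 82.2 to 330.3 CPM (median 271) in late microglia, lower in 5 of 6 libraries (-1.23 ± 0.30, adjusted p = 0.00601); with cluster 3 left out the call was lost (adjusted p = 0.0648). Itgb5 was 119 to 859.7 CPM (median 305) against 387 to 1037 CPM (median 723) (-1.18 ± 0.30, adjusted p = 0.00896) and Itga6 was 26.1 to 92.4 CPM (median 48.9) against 35.1 to 177 CPM (median 127) (-1.05 ± 0.32, adjusted p = 0.0309), both with overlapping ranges. Itgb5 lost its call without D10_mixed 1 or D10_mixed 2 (0.0566 to 0.0686), and Itga6 without D2_resident 1, D10_mixed 1, D10_mixed 2 or D21_mixed 1 (0.0537 to 0.222). The macrophage to microglia difference itself changed between the phases for 2 members, against 10.7% of all genes: Itgb2 (log2 fold change -1.19 ± 0.29 (SE), adjusted p = 0.00958) and Itgam (-1.16 ± 0.37, adjusted p = 0.0490), both Mac-1 chains, moved to the microglial side. Itgb2 went from higher in macrophages in 8 of 8 early libraries to 148 to 281 CPM (median 198) against 187 to 442 CPM (median 333) late, where it was higher in 1 of 6. The Itgb2 change held in all 23 alternatives run. The Itgam change was lost without 12 of the 14 libraries in turn, all except D3_mixed 3 and D10_infiltrating 2, with an adjusted p of 0.0528 to 0.165. The change of Itga4 between phases did not pass (1.07 ± 0.56, adjusted p = 0.247).

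**Figure D2:**
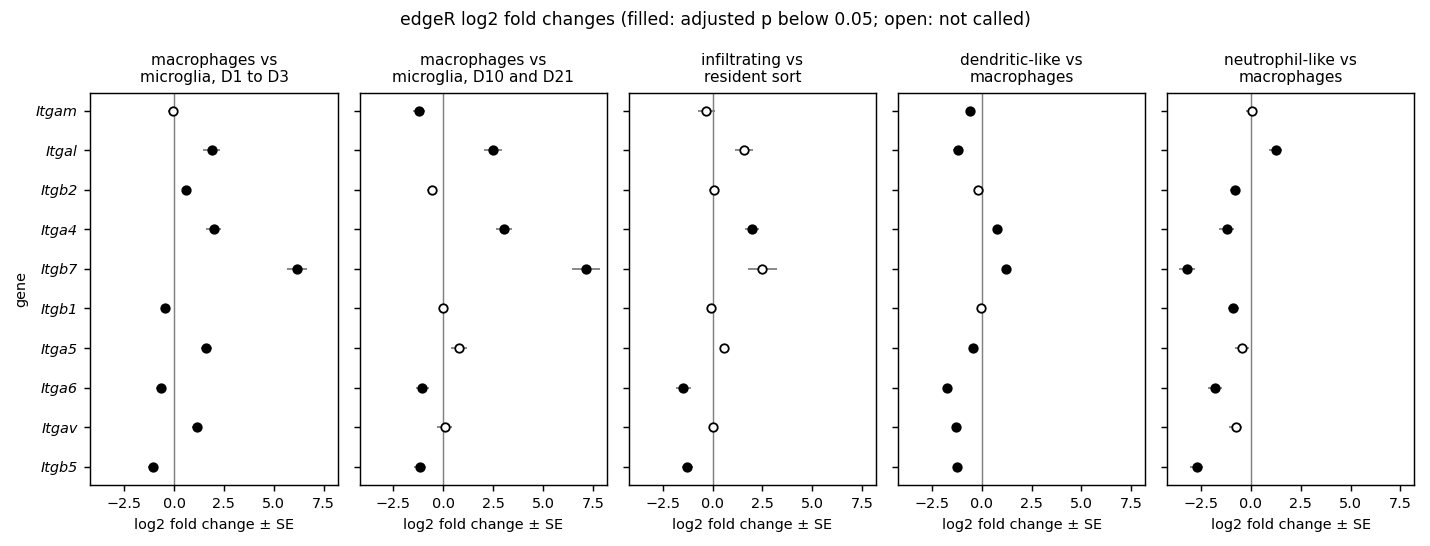
Log2 fold change with its SE for each integrin gene in 5 comparisons; filled points have an adjusted p under 0.05. Itgb7 lies at 6.15 (early) and 7.15 (late) for macrophages over microglia, and Itgb5 lies below 0 in all 5 comparisons.

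Dendritic-like cells, compared with macrophages of the same 9 libraries, had more of the α4 receptor chains and less of 6 others, 8 of 10 members against 40.5% of all 10353 genes. Itgb7 was 122 to 364 CPM (median 200.4) in dendritic-like cells and 26.2 to 212 CPM (median 91.0) in macrophages, higher in 9 of 9 (log2 fold change 1.23 ± 0.23 (SE), adjusted p = 6.2e-04). Itga4 was 64.9 to 154 CPM (median 101) against 22.9 to 145 CPM (median 61.6), higher in 8 of 9 (0.75 ± 0.19, adjusted p = 0.00544). The ranges of both genes overlapped between the types. Lower were the laminin receptor chain Itga6, at 2.76 to 32.7 CPM (median 16.8) against 26.7 to 111 CPM (median 70.5) (-1.73 ± 0.18, adjusted p = 2.6e-06), and Itgb5, at 71.2 to 199 CPM (median 98.5) against 194 to 415 CPM (median 224) (-1.22 ± 0.12, adjusted p = 1.3e-06). Both were lower in all 9 libraries. Itgav (-1.31 ± 0.17, adjusted p = 2.2e-05), Itgal (-1.18 ± 0.24, adjusted p = 0.00111), Itgam (-0.60 ± 0.16, adjusted p = 0.00654) and Itga5 (-0.44 ± 0.15, adjusted p = 0.0326) were lower too. In the 3 libraries of D10 and D21 the within-library differences of unscaled log2(CPM + 5), dendritic-like minus macrophages, were -0.34 to 0.05 for Itga4 (higher in 1 of 3), -0.64 to 0.37 for Itgam and -0.41 to 0.26 for Itga5 (each higher in 2 of 3). A change between phases was not tested. The Itga5 call was lost without D1_infiltrating 1, D2_infiltrating 1, D2_mixed 2 or D3_infiltrating 1 (0.0688 to 0.179), and with DESeq2 (0.148). Without the library block the calls of Itga4 (0.0800), Itgal (0.0783), Itgam (0.286) and Itga5 (0.344) were lost. Itgb1 (-0.06 ± 0.10, adjusted p = 0.692) and Itgb2 (-0.20 ± 0.14, adjusted p = 0.274) did not pass.

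Neutrophil-like cells could be set against macrophages in 4 libraries of D1 and D2, and 7 members passed against 48.1% of all 9679 genes, whose median log2 fold change was -0.16. Itgal was the 1 member higher, at 64.3, 84.3, 152 and 14.8 CPM in neutrophil-like cells and 41.7, 30.1, 37.3 and 15.4 in macrophages of D1_infiltrating 1, D1_infiltrating 2, D2_infiltrating 1 and D2_mixed 2, higher in 3 of 4 (log2 fold change 1.26 ± 0.33 (SE), adjusted p = 0.00429). Itgb7 was 14.5, 13.1, 3.49 and 22.2 against 193, 81.4, 84.4 and 90.9 CPM (-3.20 ± 0.38, adjusted p = 3.4e-06), and Itgb5 was 33.2, 32.5, 34.9 and 14.8 against 224, 192, 192 and 207 CPM (-2.73 ± 0.31, adjusted p = 2.0e-06). Neither gene's groups overlapped, and the groups of Itgal did. Itga6 (-1.78 ± 0.35, adjusted p = 4.9e-04), Itga4 (-1.22 ± 0.37, adjusted p = 0.0123), Itgb1 (-0.88 ± 0.28, adjusted p = 0.0156) and Itgb2 (-0.79 ± 0.27, adjusted p = 0.0215) were lower. Itgam, the CD11b chain, was 297, 649.7, 906 and 141 against 276, 692, 612 and 205 CPM and did not pass (0.04 ± 0.29, adjusted p = 0.925). The calls of Itgal (0.0567), Itga4 (0.113) and Itgb2 (0.121) were lost without D1_infiltrating 2, that of Itgb2 also without D1_infiltrating 1 (0.104), and that of Itgb1 without D2_infiltrating 1 (0.0682).

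The reporter sort gives the same question without use of the transcripts. Over all cells of the 7 infiltrating and 5 resident libraries, with time point and sex as terms, 3 members passed against 11.2% of 11548 genes: Itga4 was higher and Itga6 and Itgb5 lower in infiltrating libraries. Ctrl, D1 and D21 held 1 sort only, so with time point as a term the fold changes rest on D2, D3 and D10. The ranges below span all time points and are not matched in time. All 3 calls were lost when the library with conflicting labels was added as resident (0.0973, 0.123 and 0.109) and held when it was added as infiltrating. With pool as a term, Itga4 held (0.00721), Itga6 (0.195) and Itgb5 (0.266) were lost, and Itgb7 (0.0131) and Itgal (0.0341) were called. Bulk sums mix cell types, so fewer cells of a type and less RNA per cell cannot be told apart here. Itga4 was 5.05, 12.4, 30.6, 59.9 and 29.1 CPM in the resident libraries (Ctrl, D2, D3, D3, D10) and 71.8, 26.8, 48.3, 148, 143, 138 and 89.8 in the infiltrating ones (D1, D1, D2, D3, D10, D10, D21), and the groups overlapped between the lowest infiltrating and the highest resident library (log2 fold change 1.959 ± 0.35 (SE), adjusted p = 0.0109). Itgb5 was 964, 600.5, 472, 465.8 and 564 in resident and 193, 178, 165, 172, 414, 333 and 236 in infiltrating libraries (-1.27 ± 0.28, adjusted p = 0.0212). Itga6 was 268, 145, 146, 132 and 128 and 36.7, 30.2, 23.4, 53.9, 107, 58.4 and 40.8 (-1.46 ± 0.36, adjusted p = 0.0337). For Itgb5 and Itga6 every resident library was above every infiltrating one.

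Itgb7, the member with the largest difference between macrophages and microglia, was 0.778, 18.2, 81.6, 55.3 and 4.90 CPM in resident and 226, 86.4, 88.1, 156, 51.5, 203 and 235 in infiltrating libraries and did not pass (2.50 ± 0.72, adjusted p = 0.0567), nor did Itgal at 0.389, 5.56, 58.1, 17.4 and 11.8 and 36.6, 35.002, 44.7, 30.7, 52.5, 41.7 and 29.9 (1.57 ± 0.45, adjusted p = 0.0554). Both were called by DESeq2 (0.0156 and 0.00403), with library totals as scaling (0.0308 and 0.0338) and with no expression filter (0.0329 and 0.0355). In both Itgb7 and Itgal the resident values ran from under 1 CPM in the control library into the infiltrating range at D3: D3_resident 1 and D3_resident 2 exceeded the lowest infiltrating library for Itgb7, and D3_resident 1 exceeded every infiltrating library for Itgal. Itgam (-0.31 ± 0.42, adjusted p = 0.688), Itgb2 (0.09 ± 0.26, adjusted p = 0.867), Itgb1 (-0.06 ± 0.22, adjusted p = 0.907), Itgav (0.03 ± 0.23, adjusted p = 0.954) and Itga5 (0.60 ± 0.24, adjusted p = 0.144) did not pass. Sequencing pools held both sorts at D3 and at D10. Within the D3 pool Itga4 was 185 CPM (unscaled) in infiltrating and 59.3 in resident cells, Itgb5 215 and 461, and Itga6 67.4 and 131. Within the D10 pool Itga4 was 121 and 26.7, Itgb5 349.9 and 518, and Itga6 90.1 and 117, the same order as over all libraries. All 3 calls were lost without D2_infiltrating 1 (0.0574 for Itga4), D2_resident 1 (0.0649) or D3_infiltrating 1 (0.0520). Itga6 and Itgb5 were lost also without D3_resident 1 (0.0894 and 0.0652) or D3_resident 2 (0.0745 and 0.0551), and Itga6 without D10_infiltrating 2 (0.0694). For D2_infiltrating 1 the labels and the authors' cell table give different sexes; with the sex of the table, Itga6 was lost (0.0574) and Itga4 (0.0151) and Itgb5 (0.0375) held.

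In microglia the question was how the chains moved after injury. The fit took resident and mixed libraries, leaving out the 2 infiltrating sums, and 6 of 10 members had changed at D1 against 46.6% of all 10801 genes, a share near that background. Itgal and Itga5 were higher and Itga6, Itga4, Itgav and Itgb5 lower than in the 2 control libraries. At D2 Itgal was higher and Itgav and Itgb5 lower (3 against 29.7%), at D3 Itgal and Itga5 were higher and Itgav lower (3 against 37.6%), and at D10 Itgal was higher and Itgav lower (2 against 10.3%). At D21, with 1 library, none passed against 6.98% of all genes; 3 had an unadjusted p under 0.05 and DESeq2 called 0. All D1 libraries were mixed, and no D1 or D3 library shared a sequencing pool with a control library, so D1 and pool cannot be told apart. Of the controls, Ctrl_mixed 1 was female and Ctrl_resident 1 male, and all D1 libraries of this fit were male. Among mixed libraries only D2 held both sexes, and its male library, D2_mixed 2, had 23 microglia. D3 is tied to the controls by way of pools that also held D2 libraries. With mixed libraries alone, which leave 1 control library, all 6 D1 calls were lost (0.0687 for Itgav to 0.853 for Itgal), as were those of Itgal (0.0892) and Itgb5 (0.0812) at D2, all 3 at D3 (0.0996 to 0.722) and both at D10 (0.341 and 0.713). With pool as a term, the calls of Itgal (0.115) and Itgb5 (0.546) at D2 and all 3 at D3 (0.277 to 0.728) were lost. With library totals alone as the scaling, the median of all genes moved by -0.73, -0.40, -0.62, -0.60 and -0.94 on the log2 scale from D1 to D21 against Ctrl, and changes are therefore given relative to TMM, under which it moved by -0.01 to -0.08.

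Itgav, the vitronectin receptor α chain, was 66.6 and 88.8 CPM in the control libraries, 22.7, 19.9 and 18.7 at D1, 20.4, 40.5 and 44.3 at D2, 10.9, 15.8, 30.5, 49.0 and 27.3 at D3, 31.7, 35.1 and 32.0 at D10 and 30.5 at D21. Every injured library was below both controls. The log2 fold changes were -1.95 ± 0.40, adjusted p = 8.7e-04 at D1, -1.19 ± 0.40, adjusted p = 0.0341 at D2, -1.53 ± 0.36, adjusted p = 0.00351 at D3 and -1.24 ± 0.38, adjusted p = 0.0437 at D10. Within the pools that held a control, it was (unscaled) 30.2 and 32.9 CPM in the D10 mixed libraries against 92.0, and 48.1 (D2) and 30.6 (D10) in resident libraries against 129. Without Ctrl_resident 1 the Itgav calls were lost at D2 (0.260), D3 (0.0983) and D10 (0.368), and without Ctrl_mixed 1 at D2 (0.0982) and D10 (0.142). The D1 call held without any single library, and was lost with mixed libraries alone as above. At D2 it was lost also without D2_mixed 1, D10_mixed 1 or D10_mixed 2 (0.0507 to 0.300), and at D10 without D1_mixed 1, D1_mixed 2, D10_mixed 1, D10_mixed 2 or D10_resident 1 (0.0562 to 0.145) and with cluster 2, which spans both cell types, left out (0.0502).

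Itgb5, its β partner, was 864 and 918 CPM in controls, 527, 391 and 258 at D1, 356, 324 and 689.9 at D2, 729.8, 822, 571, 717 and 618 at D3, 900.2, 847 and 636 at D10 and 1062 at D21. It was below both controls in all D1 and D2 libraries (-1.31 ± 0.33, adjusted p = 0.00414 at D1 and -0.996 ± 0.32, adjusted p = 0.0273 at D2), and 1 of the 3 D10 libraries lay within the control range. In unscaled CPM, Itgb5 was 858 and 796 in the D10 mixed libraries against 1193 in the control of their pool. In the other pool with a control, the resident libraries had 749 (D2) and 607 (D10) against 1338. The ratio of unscaled Itgb5 CPM to controls was 0.665 at D21. From D1 to D3 it rose (0.87 ± 0.27, adjusted p = 0.0315), with all 5 D3 libraries above all 3 D1 libraries. That rise was lost with mixed libraries alone (0.0765) and without D1_mixed 2 (0.107), D1_mixed 3 (0.146) or D3_resident 1 (0.0585), and the D2 call without Ctrl_mixed 1, Ctrl_resident 1, D2_mixed 1 or D2_mixed 2 (0.0604 to 0.173) and without cluster 2 (0.0697). Itga6, the laminin receptor α chain, was 193 and 255 in controls, 97.2, 86.2 and 40.8 at D1, 106, 185 and 158 at D2, 56.5, 45.8, 155, 190.0 and 155 at D3, 155, 182 and 139 at D10 and 120.1 at D21. Its ratios of unscaled CPM to controls were 0.224, 0.546, 0.442, 0.525 and 0.316 at D1, D2, D3, D10 and D21. All D1 libraries were below both controls (-1.60 ± 0.48, adjusted p = 0.0119; 0.171 without Ctrl_resident 1), and no later time point was called, with D3_mixed 1 and D3_mixed 2 in the D1 range and D2_mixed 2, D3_resident 1 and D10_mixed 2 close to the lower control.

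Itga4 was low in microglia at all times: 4.01 and 4.81 CPM in controls, 0.967, 0.332 and 0 at D1, 8.27, 5.79 and 6.50 at D2, 2.17, 1.76, 15.9, 2.04 and 20.3 at D3, 7.07, 15.4 and 8.82 at D10 and 9.61 at D21. The D1 libraries held 5 counts in all against 44 in controls, a ratio of unscaled CPM of 0.0683 (0.0211 to 0.172) with its exact 95% counting interval (-3.34 ± 0.95, adjusted p = 0.00846). From D1 to D3 it rose (4.49 ± 0.80, adjusted p = 0.00119), and every D3 library was above every D1 library. This rise held without any single library, but 3 of the 5 D3 libraries held 1 count each, and D3_mixed 3 and D3_resident 2 held 25 and 38. Itgal was listed with 2 counts in the controls, at 0.129 and 0.370 CPM, then 0.967, 0.995 and 1.93 at D1, 1.94, 11.6 and 4.02 at D2, 0, 1.76, 3.18, 16.3 and 3.21 at D3, 3.64, 2.98 and 6.97 at D10 and 3.39 at D21. Its ratios of unscaled CPM to controls were 4.21 (0.967 to 38.2) at D1, 15.0 (3.89 to 128) at D2, 14.2 (3.45 to 125) at D3 and 14.3 (3.74 to 122) at D10, so the D1 counting interval includes 1. All injured libraries except D3_mixed 1, at 0, were above both controls. The adjusted p was 0.0409, 0.00746, 0.00372 and 0.00934 at D1, D2, D3 and D10, and without Ctrl_mixed 1 it was 0.419, 0.216, 0.135 and 0.350. The D1 call was also lost without D1_mixed 2, D1_mixed 3, D3_resident 1, D3_resident 2 or any D10 library (0.0502 to 0.0948), and the D2 call without D2_resident 1 (0.0562).

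Itga5, the fibronectin receptor α chain, was 6.21 and 9.62 CPM in controls, 25.9, 21.2 and 35.6 at D1, 8.27, 11.6 and 16.5 at D2, 15.2, 26.4, 24.1, 22.5 and 10.7 at D3, 13.5, 15.2 and 12.1 at D10 and 13.9 at D21. All D1 and D3 libraries were above both controls, and the log2 fold changes were 1.65 ± 0.41, adjusted p = 0.00338 at D1 and 1.199 ± 0.39, adjusted p = 0.0242 at D3; with library totals alone as the scaling they were 0.93 (0.0712) and 0.62 (0.208). The D3 call was lost without Ctrl_mixed 1 (0.171), Ctrl_resident 1 (0.0868) or D3_resident 1 (0.0626). The Mac-1 chains did not pass at any time. Itgam was 408 and 401 in controls, 285, 312 and 311 at D1, 137, 237 and 312 at D2, 189, 206, 181, 504 and 347 at D3, 340.3, 331 and 280.0 at D10 and 273 at D21. Of the 15 injured libraries, 1 (D3_resident 1) exceeded the controls. In unscaled CPM, every injured library was below both controls for Itgam. The ratios of unscaled Itgam CPM to controls were 0.461, 0.525, 0.464, 0.541 and 0.369 at D1, D2, D3, D10 and D21. Itgb2 was 246 and 211 in controls and 136 to 452 after injury (log2 fold change at D21 1.01 ± 0.40, adjusted p = 0.155). Itgb1, the common partner of Itga4, Itga5 and Itga6, was 282 and 188 in controls and 189 to 679.8 after injury, at a log2 fold change of -0.02 ± 0.41, adjusted p = 0.977 at D1. Itgb7 held 5 counts in controls and 10 at D3, too few to rank the times. From D1 to D3, Itga4 and Itgb5 were the members called, 2 against 18.8% of all genes. From D3 to D10 none was called against 6.88%; 0 had an unadjusted p under 0.05 and DESeq2 called 0.

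In the microglial sums of this fit, the summed macrophage markers were 19.5 to 53.9 CPM in controls, 1508 to 2502 at D1, 1101 to 1538 at D2, 1484 to 3557 at D3 and 1282 to 1555 at D10. The summed monocyte markers were 8.40 to 10.8, 6.34 to 32.5, 15.5 to 51.8, 0 to 45.3 and 2.22 to 13.5 CPM in the same order. The summed microglia markers were 24922 to 29206 in controls, and 4249 to 7727, 5733 to 11308, 9169 to 12539.7 and 12623 to 13852 at the later points. The summed border macrophage markers were 2.14 to 7.01 CPM in controls, 36.8 to 156 at D1, 74.5 to 303 at D2 and 59.8 to 218 at D3. In the D21 library the macrophage, monocyte and microglia markers summed to 2677, 1.74 and 10157.5 CPM. The part of these markers in the values of Itgal, Itga5 and Itgav was not tested.

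In macrophages D1 was the reference, since the control libraries held none, and the fit took infiltrating and mixed libraries, leaving out the 4 resident sums. No member passed at D2 against 0% of all 8577 genes (1 had an unadjusted p under 0.05 and DESeq2 called 0), at D3 against 0% (4 and 0), or at D21 against 3.56% (4 and 3). At D10, 4 members passed against 14.4%: Itga4 was higher, and Itgam, Itgb2 and Itga5 were lower. No D10 library shared a pool with a D1 library, so time cannot be told apart from pool. Itga5 was 70.9, 65.9, 79.3 and 78.4 CPM in the D1 libraries, 77.3, 43.8 and 43.0 at D2, 55.9 and 24.3 at D3, 20.7, 12.1, 13.5 and 12.8 at D10 and 6.88 and 56.0 at D21 (log2 fold change -2.34 ± 0.42 (SE), adjusted p = 0.00413 at D10). All 4 D10 libraries were below every D1, D2 and D3 library of the fit, and at D21 the infiltrating library was lowest and D21_mixed 1 was close to the D1 range. In the resident sums left out, Itga5 was (unscaled) 64.4 CPM at D2, 104 and 69.04 at D3 and 21.3 at D10, the last slightly above D3_mixed 3 on that scale (19.5).

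Itgam was 265, 681, 298 and 649.8 CPM at D1, 602, 198 and 201 at D2, 241 and 104 at D3, 116, 146, 93.1 and 71.5 at D10 and 50.9 and 134 at D21 (-2.20 ± 0.49, adjusted p = 0.0113 at D10). Itgb2 was 558, 571, 415 and 363, 610.2, 439.9 and 319, 354 and 237, 204, 246, 185 and 146 and 187 and 293 in the same order (-1.28 ± 0.27, adjusted p = 0.00889 at D10). For both Mac-1 chains every D10 library was below every D1 library. At D21 the log2 fold changes were -2.58 ± 0.70, adjusted p = 0.0561 for Itgam and -1.12 ± 0.35, adjusted p = 0.0828 for Itgb2, with 2 libraries. Itga4, the VLA-4 α chain, was 59.1, 22.1, 7.55 and 6.72 at D1, 39.5, 11.5 and 23.7 at D2, 119 and 26.0 at D3, 138, 147, 156 and 98.2 at D10 and 90.8 and 43.1 at D21 (2.41 ± 0.59, adjusted p = 0.0171 at D10). All D10 libraries were above all D1 libraries, and within D1 both infiltrating libraries, listed first, were above both mixed ones. Without D1_infiltrating 2 the Itga4 call was lost (0.0742); the calls of Itgam, Itgb2 and Itga5 held in all 26 alternatives run. With cluster 13 left out, Itga4 was 2.06 (0.0248); that cluster was 18.9% and 14.7% of the macrophages of D10_mixed 1 and D10_mixed 2.

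The partner chains did not pass. Itgb7 was 185, 80.1, 22.7 and 38.1 CPM at D1 and 26.6, 109, 131 and 133 at D10 (0.03 ± 0.83, adjusted p = 0.989), and Itgb1 was 178, 228, 185 and 173 and 229.6, 299.8, 203 and 175 (0.24 ± 0.25, adjusted p = 0.549). Itgal was 40.1, 29.7, 7.55 and 4.48 at D1 and 50.6, 60.7, 43.5 and 26.7 at D10 (0.92 ± 0.77, adjusted p = 0.456), with groups that overlapped only through the infiltrating D1 libraries. Itgav was 57.0, 45.9, 52.9 and 60.5 and 52.0, 36.4, 13.5 and 20.3 (-0.82 ± 0.37, adjusted p = 0.151), Itga6 41.2, 32.0, 30.2 and 22.4 and 112, 90.1, 25.5 and 45.9 (1.08 ± 0.46, adjusted p = 0.129), and Itgb5 215, 189, 298 and 80.7 and 421, 418, 165 and 117 (0.47 ± 0.45, adjusted p = 0.516). In Itga6 and Itgb5 the D10 infiltrating libraries were high and the D10 mixed ones low, in or near the D1 range. For Itgb7 the sorts went apart. The mixed libraries had 22.7 and 38.1 CPM at D1 and 131 and 133 at D10. The infiltrating ones had 185 and 80.1 at D1 and 26.6 and 109 at D10. Between D3 and D10 no member was called against 0.676% of all genes (3 had an unadjusted p under 0.05 and DESeq2 called 1). The summed monocyte markers in the macrophage sums of this fit were 2581 to 6149 CPM at D1 and 759.7 to 6025 at D10, the microglia markers 292 to 1263 and 844 to 2765, and the border macrophage markers 283 to 6009 and 25.3 to 56.2. The macrophage markers were 10941 to 18305 at D1 and 2696 to 7381 at D10, the B cell markers 0 to 2.05 and 17.3 to 47.7, and the T or NK cell markers 0 to 0.529 and 0 to 49.9. Their part in the values was not tested.

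The 16 deposited clusters show which cells carried these levels, as pooled unscaled CPM with no test, since the clusters were drawn on the same expression. Cluster values and sizes include the D3 library with conflicting labels, and the shares of D1 and D10 cells do not. That library held 786 cells of cluster 12, 1045 of cluster 11 and 57 of cluster 13. Cluster 1 (1887 cells) was all cells of the control libraries and had the highest Itgb5 (1229 CPM), Itgam (569) and Itga6 (292) of any cluster. Cluster 5, which held 69.9% of D1 microglia (resident and mixed libraries), had 432, 263 and 92.9 of the same genes, and cluster 4 (1377 cells), which held 32.8% of D10 microglia, had 907, 427 and 214. Among macrophage clusters, cluster 12 (2043 cells) and cluster 11 (4504 cells), which held 21.1% and 53.9% of D1 macrophages (infiltrating and mixed libraries), had 513 and 505 CPM of Itgb2 and 174 and 129 of Itgb7. Cluster 9 (3554 cells), 61.1% of D10 macrophages by the same count, had 198 of Itgb2, 98.0 of Itgam, 20.3 of Itga5 and 31.4 of Itgb7. Of its cells, 2676 came from D3_mixed 3. The medians over the 9 libraries with at least 20 of its cells were 191, 123, 19.0 and 14.4. Cluster 13 (234 cells) had the highest Itga4 (527 CPM) and Itgal (297), and Itga6 of 8.54; its monocyte markers summed to 8685 CPM and its T or NK cell markers to 0.570, with 5 of 6 at 0. Cluster 14 (118 cells) had the highest Itga5 (315) and Itgav (191). The dendritic-like cluster 15 had the highest Itgb7 (266), and the microglial clusters apart from those that span both types lay at 0.197 to 2.31.

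**Figure D3:**
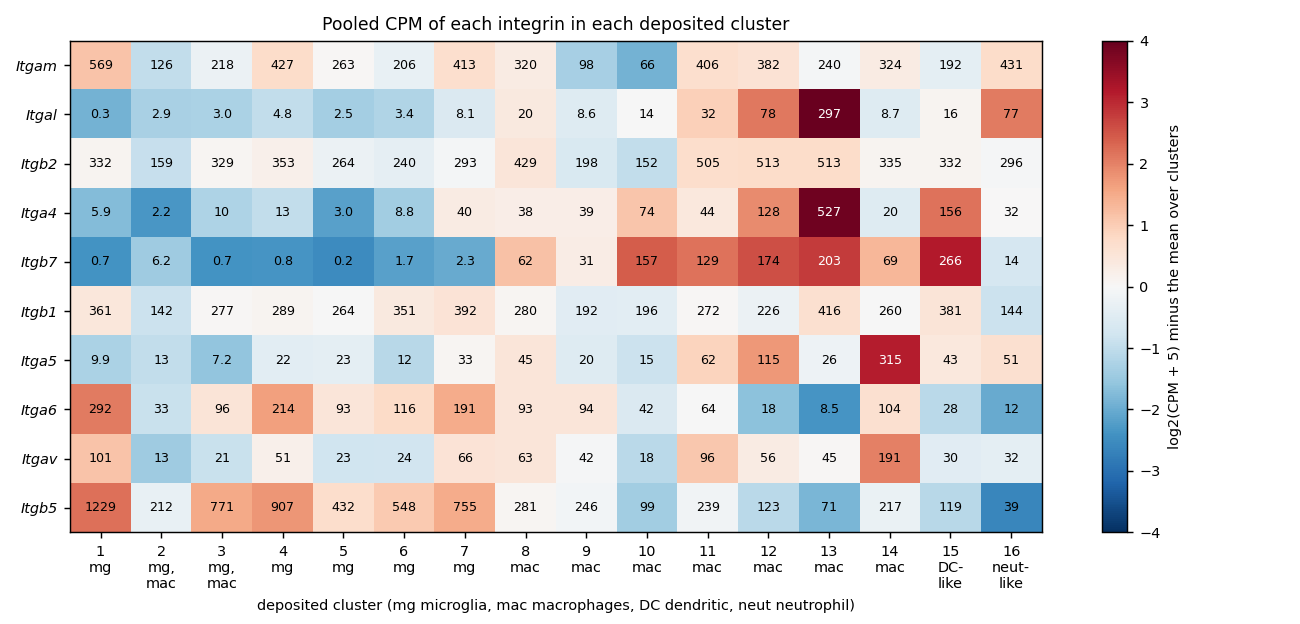
Pooled CPM of each integrin gene in the 16 deposited clusters (printed number), coloured by log2(CPM + 5) minus the gene's mean over clusters. Cluster 13 stands out for Itga4 (527 CPM) and Itgal (297), cluster 14 for Itga5 (315) and cluster 1 for Itgb5 (1229).

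Other genes of the pathway came from lists of 17 further integrin subunits, 30 activators and adaptors and 25 ligands, and some of the called genes with the largest change are named. In macrophages over microglia early, the subunits called were 2 higher and 1 lower of 4 tested (median log2 fold change 1.44, against 0.04 over all genes): Itga1, a collagen receptor chain, at 7.42 ± 0.80 (adjusted p = 1.1e-05), Itgax, the CD11c chain that pairs with Itgb2, at 2.47 ± 0.43 (9.6e-05), and Itgb3, the other vitronectin receptor β chain, at -4.51 ± 0.69 (2.8e-05). Of all genes, 37.5% were called there. The adaptors called were 9 higher and 4 lower of 24 tested (median log2 fold change 0.26, against 0.04 over all genes), with Cytip at 3.23 ± 0.38 and Tln2, a talin that activates integrins, at -3.21 ± 0.45. The sort gave the same direction for Itgb3 (-4.36 ± 0.71), Itgax (1.60 ± 0.34), Tln2 (-4.67 ± 0.66) and Cytip (3.39 ± 0.41). In microglia at D10, Itgax was higher than in controls (3.02 ± 0.52, adjusted p = 0.00115) and higher than at D3 (3.75 ± 0.47), while its partner Itgb2 was not called. Itga9, which pairs with Itgb1 and binds tenascin-C, was lower than in controls at D1 (-2.29 ± 0.51), D2 (-2.92 ± 0.53), D3 (-3.16 ± 0.53) and D10 (-2.10 ± 0.48, adjusted p = 0.00758).

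Among the ligands, fibronectin (Fn1), bound by the Itga5 and Itga4 receptors, and osteopontin (Spp1), bound by Itgav receptors, were higher in microglia at D1 (6.66 ± 0.87 and 11.61 ± 0.69), where Itga4 and Itgav were lower and Itga5 higher. The ligands called there were 2 higher and 3 lower of 14 tested (median log2 fold change -0.49, against -0.01 over all genes), where 46.6% of all genes were called. At D10 Fn1 and Spp1 were still higher than in controls (6.14 ± 0.85 and 9.86 ± 0.65), with C3, the source of the Mac-1 ligand iC3b, at 5.93 ± 0.77. In macrophages at D10 against D1, the ligands called were 1 higher and 2 lower of 10 tested (median log2 fold change -0.35, against 0.01 over all genes): thrombospondin 1 (Thbs1) at -7.92 ± 1.00 and Fn1 at -3.19 ± 0.67 were lower together with Itga5, and Icam2, a ligand of LFA-1, was higher at 2.29 ± 0.73 (adjusted p = 0.0490). Of all genes, 14.4% were called in that comparison. The adaptors called were 0 higher and 2 lower of 22 tested (median log2 fold change -0.29, against 0.01 over all genes), namely Parvb (-1.90 ± 0.30) and Rap1b (-1.15 ± 0.29), a small GTPase that activates integrins. In dendritic-like cells over macrophages, Itgae, the αE chain that pairs with Itgb7, was higher (4.36 ± 0.60, adjusted p = 7.9e-05), as was Itgax (1.82 ± 0.19). Itga9 (-3.59 ± 0.55) and the ligands Thbs1 (-5.49 ± 0.41) and Spp1 (-5.17 ± 0.32) were lower, and 40.5% of all genes were called there. Itgae and Itga9 were near the floor. Itgae had 0 to 24.8 CPM (median 2.34, 149 counts) in dendritic-like cells and 16 counts in macrophages. Itga9 had 8 counts in dendritic-like cells and 317 in macrophages (median 4.19 CPM). In neutrophil-like cells over macrophages, the adaptors called were 9 higher and 2 lower of 22 tested (median log2 fold change 0.27, against -0.16 over all genes), led by Actn1 (3.87 ± 0.36), an actin cross-linker, and Pxn (2.77 ± 0.29), paxillin, with Parvb lower (-3.75 ± 0.42); 48.1% of all genes were called there.

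Across the 51 sums of 1 cell type in 1 library, which share libraries and cell types, the genes whose log2(CPM + 5) was most like a member were taken among 5543 genes with a mean of at least 20 CPM. For Itgb7 they were Napsa (0.93), Olfm1 (0.92) and Ahnak (0.91), with Pearson r in brackets, for Itga4 Mndal (0.88), Stap1 (0.87) and Arhgap15 (0.87), for Itgb5 Aif1 (0.93), Rnase4 (0.92) and C1qb (0.91), and for Itga6 Ptpra (0.90) and Pdlim4 (0.83). For Itgam they were Cd53 (0.78), Slc16a3 (0.77) and Picalm (0.76), and for Itgb2 Elk3 (0.73), Cd200r1 (0.71) and Rbm47 (0.70). Itgb7 and Itga4, chains of 1 receptor, had r = 0.81 with each other over all 51 sums, but 0.36 within the 19 macrophage sums and 0.27 within the 19 microglial sums. Itgam and Itgb2, the Mac-1 chains, had 0.68 over all, 0.90 within macrophages and 0.54 within microglia. Itga5 and Itgb2 had 0.69 and 0.89 within macrophages, and Itgal and Itga4 0.58 and 0.77. The lowest values over all 51 sums were those of Itgb5 with Itgal (-0.56) and with Itgb7 (-0.56).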

How the data were processed

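For each library the authors deposited a table of raw UMI counts (genes by cells), and a table with a sequencing pool, cluster and cell type code per cell, per the file headers. Cell Ranger 3.1.0 and the builds GRCm38 and mm10 are named in the submitters' processing notes; cell filters are not given in the sources used here. The authors' count totals per cell equalled the sums of the tables in all 30958 cells, and the lowest was 713. Whole-series matrices were not used here. Counts were summed per library and cell type (at least 20 cells). The sums were tested with edgeR 4.0.16 (R 4.3.3), by its quasi-likelihood test after filterByExpr and TMM scaling, with 2-sided p-values adjusted by Benjamini-Hochberg over all genes tested. An adjusted p under 0.05 is a call, and values in brackets after a named library left out, or after a named setting, are adjusted p. Terms were time point and sex, or the library where cell types of the same libraries were compared. The SE is the log2 fold change divided by the square root of the F statistic. Errors in brackets of count ratios cover counting only. Groups came from the labels. Shares of cells used cells thinned to 1000 UMIs. No doublet caller was run. Alternatives were DESeq2 1.42.0, median-of-ratios scaling, no expression filter, at least 50 cells, cluster 2 left out, pool as a term, mixed libraries alone, the library with conflicting labels added, block terms, and each library left out. Library totals as scaling, clusters 3 and 13 left out, the sex of the cell table, and mixed libraries without a block were added after seeing the data. The members, the pathway lists and the markers were chosen with earlier results of these data known. All members are named; of each list, up to 3 called genes with the largest change were eligible to be named. Of the genes most like a member, 1 is not reported here. The script was tested on simulated counts.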

Additional observations from a re-analysis of the deposited data

Results flagged for a closer look

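In 7 of the 50 groups of 4 to 10 libraries examined, 1 library stood apart from the others of its group by Dixon's ratio. For like libraries chance gives this in about 1 in 20 groups. The resident and infiltrating groups span several time points and the genes share libraries, so that rate cannot be set against the 7. In D3 microglia, D3_resident 1 had 16.3 scaled CPM of Itgal against 3.21 in the next library, from 8 counts. In D10 macrophages, D10_infiltrating 1 had 20.7 CPM of Itga5 against 13.5. Over all cells of the resident libraries, Ctrl_resident 1, the 1 uninjured library among them, had 267.9 CPM of Itga6 against 145.8 and 964 CPM of Itgb5 against 600.5, and D3_resident 2 had 565 CPM of Itgb1 against 300.3. Over the infiltrating libraries, D10_infiltrating 1 had 106.6 CPM of Itga6 against 58.4, and D3_infiltrating 1 had 408 CPM of Itgb1 against 266.

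The difference between macrophages and microglia changed between the early and late libraries for Itgam, by -1.16 on the log2 scale, and for Itgb2, by -1.19, as tested by the interaction of cell type with phase.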

How the results depend on the processing

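Over the alternatives, 0 of the 55 called member results reversed: of 1189 refits, 1038 kept the call and 151 lost it. Of 3082 refits of the 125 results not called, 78 gained a call. The counts of members called that follow are those that moved by over 1.5 times. In microglia, library totals as scaling gave 5 at D3 and 1 at D21 against Ctrl, a pool term 1 at D2 and 0 at D3, mixed libraries alone 0 at D1, 1 at D3 and 0 at D10, and omission of cluster 2 gave 1 at D10. In macrophages at D21 against D1, DESeq2 gave 3, and library totals, no expression filter, omission of cluster 3, omission of cluster 13 and addition of the library with conflicting labels gave 1 each. At D10 against D3, DESeq2 gave 1, mixed libraries alone 5 and the conflicting library 2. Mixed libraries alone gave 3 at D3 and 7 at D10 against D1. In the sort, DESeq2, library totals and no expression filter gave 5 each, and the conflicting library added as resident gave 0. The late minus early count was 1 with median-of-ratios scaling, library totals, cluster 3 left out or no replicate block, and the dendritic-like count was 4 with no replicate block.

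With each library left out in turn, the counts ran from 5 to 6 (microglia D1), 0 to 4 (D2), 1 to 4 (D3), 0 to 2 (D10) and 0 to 1 (D21) against Ctrl, from 1 to 3 for D3 against D1 and 0 to 0 for D10 against D3. In macrophages they ran from 0 to 0 (D2), 0 to 0 (D3), 3 to 4 (D10) and 0 to 1 (D21) against D1, and 0 to 2 for D10 against D3. They ran from 0 to 6 in the sort, 7 to 9 early, 4 to 7 late, 1 to 2 for the change between phases, 7 to 8 in dendritic-like and 4 to 7 in neutrophil-like cells. The cause of these moves was not tested, but mixed libraries alone leave 1 control library, which is female while those of D1 are male.

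Replicate numbers do not pair libraries: same-numbered mixed libraries of D1, D3 and D10 had correlations of -0.23 to 0.21 over 4940 genes. With the replicate block in those libraries, the Itga4 rise from D1 to D3 lost its call (adjusted p = 0.0599) and 1 member, Itgam, was called for D10 against D3. Depth limits Itgal, Itga4 and Itgb7 in microglia, where control libraries held 2, 44 and 5 counts.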

Other observations

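The D3 library with conflicting labels (3800 cells), left out of the comparisons, held 62.3% macrophages, 23.6% neutrophil-like, 13.9% dendritic-like and 0.211% microglial cells, against 0.253% to 26.5% microglia in the infiltrating and 67.9% to 100% in the resident libraries. Over all its cells, in unscaled CPM, Itgb7 was 154, Itga4 72.9, Itgal 49.2, Itga5 67.8 and Itgav 71.6. Itgb5 was 201 and Itga6 59.6, and the Mac-1 chains were 268 (Itgam) and 406 (Itgb2), with Itgb1 at 202.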
